A study of Homo sapiens with 6 samples.

Results

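The genes examined here were 46 genes of mitosis and of the G2/M phase of the cell cycle, chosen by symbol for their known roles in these phases. All 46 were found among the 61541 Ensembl genes of the deposited count table, and all 46 had enough counts to be tested. RNA was sequenced from luciferases-expressing HepG2 cells, a human hepatoblastoma line that carries luciferase reporters, after 24 h with sedanolide at 100 μM and from control cells (3 libraries each). Sedanolide is a phthalide of celery, which the study examined as an activator of the antioxidant factor NRF2, and the comparison asks which transcripts differ after this exposure. The labels give the comparison group only as control, without naming a vehicle. All libraries came from the same line, and whether they came from separate cultures is not stated, so p-values measure only the spread between these libraries.

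Entry into mitosis is driven by CDK1 bound to cyclin A or cyclin B, and the genes of mitosis are transcribed mainly in G2 by B-MYB, FOXM1 and the MuvB complex. Their products condense the chromosomes, build the spindle, hold anaphase back until every kinetochore is attached, and then cut cohesion and divide the cell. In a culture of unsynchronized cells such as HepG2, the level of these transcripts follows the share of cells in G2 and mitosis. In bulk RNA, fewer cells in these phases and less RNA per cell cannot be told apart.

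Many promoters of these genes carry either or both of a pair of elements, shown here because members were compared with and without them. TTTGAA is the core of the cell cycle genes homology region (CHR), where MuvB binds, and CCAAT is the box bound by NF-Y. Both were searched on both strands, where the reverse strand reads TTCAAA and ATTGG. The RefSeq promoter table (GRCh38.p14), which gives 250 bases before and 50 after a start, held 36 members. BIRC5, BUB3, TPX2, PKMYT1, RACGAP1, UBE2C, WEE1, TTK, FOXM1 and AURKA were not matched. TTTGAA was found in 26 of the 36 windows (72.2%), against 15.4% of the 27305 genes in the table. CCAAT was also found in 26 (72.2%, against 35.7% of all genes), at least 2 CCAAT boxes in 17 (47.2% against 11.3%), and both elements in 19 (52.8% against 6.08%). The 250 bases before the start are given below for the genes of both B-type cyclins, for the anaphase activator CDC20 and the kinase PLK1, and for HMMR, whose level varied widely between libraries. Where the table lists several starts, as for 7 members but none of those printed, the one listed at the top was used. All 5 lie on the plus strand, and capitals mark TTTGAA or CCAAT on either strand. In the printed bases of HMMR, CCAATTGG is read as a box on each strand.
CCNB1, chr5:69166900-69167149: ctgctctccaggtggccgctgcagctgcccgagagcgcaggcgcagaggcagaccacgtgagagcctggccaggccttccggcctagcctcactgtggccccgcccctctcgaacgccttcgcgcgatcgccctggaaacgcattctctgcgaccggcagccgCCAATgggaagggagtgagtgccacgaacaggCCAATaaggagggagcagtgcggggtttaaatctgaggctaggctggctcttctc
CCNB2, chr15:59104896-59105145: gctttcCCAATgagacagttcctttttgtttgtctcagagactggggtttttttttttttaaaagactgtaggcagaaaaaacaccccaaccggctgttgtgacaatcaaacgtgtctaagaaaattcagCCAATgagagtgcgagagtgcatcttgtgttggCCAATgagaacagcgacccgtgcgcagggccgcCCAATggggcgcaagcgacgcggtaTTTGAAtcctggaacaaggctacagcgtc
CDC20, chr1:43358731-43358980: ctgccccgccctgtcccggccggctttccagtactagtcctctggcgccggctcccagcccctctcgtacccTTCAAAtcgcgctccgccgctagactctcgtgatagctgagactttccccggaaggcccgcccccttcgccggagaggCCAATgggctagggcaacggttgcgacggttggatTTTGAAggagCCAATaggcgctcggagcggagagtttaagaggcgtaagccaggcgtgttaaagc
PLK1, chr16:23678639-23678888: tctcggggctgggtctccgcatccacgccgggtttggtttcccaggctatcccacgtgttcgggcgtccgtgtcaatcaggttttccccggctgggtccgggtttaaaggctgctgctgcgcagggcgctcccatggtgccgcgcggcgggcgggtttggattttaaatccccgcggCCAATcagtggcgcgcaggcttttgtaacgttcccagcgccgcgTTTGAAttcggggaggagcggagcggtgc
HMMR, chr5:163460382-163460631: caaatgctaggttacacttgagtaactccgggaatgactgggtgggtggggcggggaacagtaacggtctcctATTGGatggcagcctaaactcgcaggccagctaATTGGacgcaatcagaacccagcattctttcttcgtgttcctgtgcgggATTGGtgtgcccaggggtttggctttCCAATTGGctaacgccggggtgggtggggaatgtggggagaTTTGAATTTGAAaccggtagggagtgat
CCNB2 had 4 CCAAT boxes and 1 TTTGAA, whereas CCNB1 had 2 CCAAT boxes and 0 TTTGAA in its window. CDC20 had 2 of each. A match describes these letters only, and binding was not measured. Only TTTGAA was searched for the CHR, so a window without it was not shown to lack a CHR.

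The libraries held between 16420258 and 26714853 expected counts, and a single member between 49 and 8377 counts in a library. When log2 CPM (counts scaled to library size) were decomposed into principal components, component 1 took 56.1% of the variance and did not follow the treatment. Side A of this component held controls 1 and 2 with sedanolide 3, and side B held control 3 with sedanolide 1 and 2. The same 6 libraries lay on the same sides when the members and the other cell cycle genes were left out. Mitochondrial transcripts took 1.43% to 2.15% of the counts on side A and 4.24% to 5.22% on side B. Neither the labels nor the methods give a batch. All 11 markers of hepatocytes had counts in every library, with a summed level of 43212 to 51536 CPM on side A and 25315 to 33791 CPM on side B. Of 13 markers of fibroblasts, endothelium and leukocytes, 6 or 7 were at 0 in each library, COL1A1, CDH5 and PTPRC were not among those with enough counts to be tested, and most of the summed level was LYZ.

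No member passed the test for a change after sedanolide. In edgeR's quasi-likelihood test, 0 of the 46 members were past both thresholds (an FDR of 0.05 by Benjamini-Hochberg adjustment, and 1.5-fold), against 0.674% of the 14104 features tested. At an unadjusted p-value under 0.05 there were also 0 members, against 11.9% of all features in edgeR, and 0 against 12.4% in DESeq2, which called 2.33% of all features and 0 members. The 95% intervals of all 46 members lay within a 2-fold change in either direction, and those of 27 lay within 1.5-fold. The fitted log2 fold changes ran from -0.15 (INCENP) to 0.37 (AURKA). They were positive in 32 members and negative in 14, where 49.3% of all features were negative, with a median of 0.088 against 0.0057 over all features. When the fit included the side of component 1, it called 2.7% of all features and 0 members, and 0 members were at an unadjusted p-value under 0.05 (19.5% of all features). In that fit 23 were positive and 23 negative, their median was -0.0011, and all 46 intervals lay within 1.5-fold. The side was itself derived from the counts of these libraries. Intervals from fits with it can therefore be too narrow, and p-values too small. Leaving out control 3 brought 3 members to an unadjusted p-value under 0.05 (AURKA, NCAPG and SMC2, with log2 fold changes of 0.55, 0.54 and 0.49), where 13.8% of all features were, and leaving out sedanolide 3 brought 4 (NDC80 at 0.49, AURKA at 0.52, NCAPG at 0.51 and INCENP at -0.46), where 23% of all features were, with 0 past the FDR in either fit. In normalized CPM, 1 member (MAD2L1) had all 3 sedanolide libraries above all controls, against 8.69% of all features. Another 1 (BIRC5) had them all below, against 9.66%. Neither separation held in the length-scaled values given below.

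**Figure D1:**
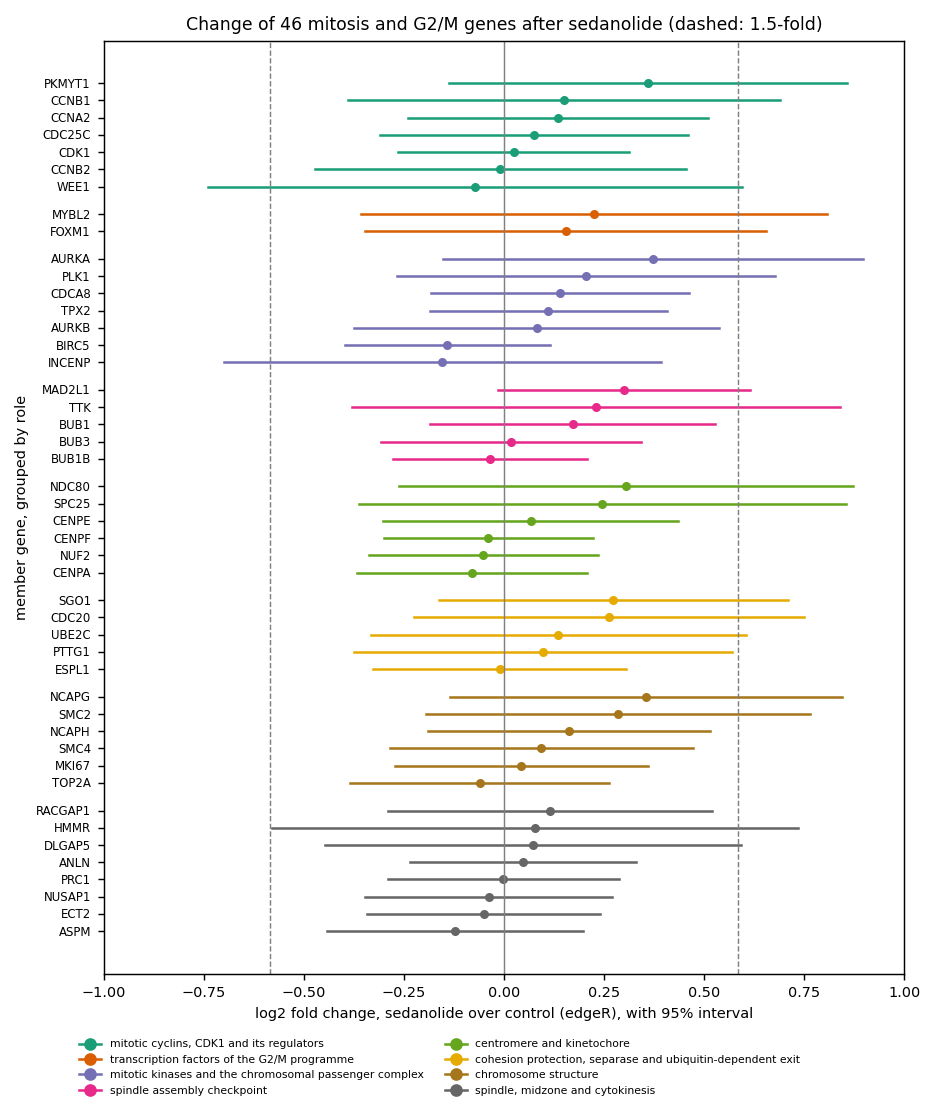
Log2 fold change of each of the 46 members, sedanolide over control, from edgeR (x axis, points) with its 95% interval (lines), grouped and colored by role (y axis). Every interval crosses 0, and the dashed lines mark a 1.5-fold change.

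The genes of the cyclins, of CDK1 and of the enzymes that switch CDK1 on and off numbered 7, of which 5 had positive and 2 negative log2 fold changes. CCNB1 encodes cyclin B1, the partner of CDK1 at mitotic entry, and lies on chromosome 5 of GRCh38 from 69167135 to 69178245. The libraries gave 124, 107 and 167 CPM in controls 1 to 3 and 174, 159 and 109 CPM in sedanolide 1 to 3. Control 3, sedanolide 1 and sedanolide 2 were the highest, and the groups overlapped. Means were 133 ± 30.6 CPM without and 147 ± 33.7 CPM with sedanolide (SD, n = 3), and the log2 fold change of 0.15 had a 95% interval from -0.39 to 0.69. CDK1 itself, the kinase that all mitotic cyclins activate, varied less. Normalized levels were 34.4, 36.9 and 40.9 CPM in controls 1 to 3 and 41.6, 35.8 and 36.7 CPM in sedanolide 1 to 3. Its group means of 37.4 ± 3.25 and 38.1 ± 3.11 CPM (SD, n = 3) gave a log2 fold change of 0.025, with an interval from -0.26 to 0.31. PKMYT1 encodes a membrane-bound kinase that holds CDK1 inactive. It was measured at 13.2, 9.87 and 15.4 CPM in controls 1 to 3 and 19.9, 15.5 and 14 CPM in sedanolide 1 to 3. Its log2 fold change of 0.36 (standard error 0.211) came with an adjusted p of 0.558 (edgeR's quasi-likelihood test, Benjamini-Hochberg). PKMYT1 shares 1228 exon bases with PAQR4 on the opposite strand, which had 165% of its counts, and the strand setting of the counting is not stated. On the opposite strand, CDC25C likewise shares 293 exon bases with FAM53C (246% of its counts) and CCNA2 254 with EXOSC9 (23.3%). WEE1, the nuclear kinase with the same role, had a log2 fold change of -0.072 and the widest interval of this group, from -0.74 to 0.59. The log2 fold changes of CCNA2 (cyclin A2), CCNB2 (cyclin B2) and CDC25C, the phosphatase that activates CDK1, were 0.14, -0.0091 and 0.076.

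Both transcription factors of the program among the members gave small positive differences that did not pass the test. FOXM1, which drives the genes of G2 and lies on chromosome 12 of GRCh38 from 2857680 to 2877174, was measured at 102, 76.9 and 116 CPM in controls 1 to 3 and 128, 117 and 83.3 CPM in sedanolide 1 to 3. Control 2 and sedanolide 3 were the lowest. Its means of 98.1 ± 19.6 and 109 ± 23.1 CPM (SD, n = 3) differed by a log2 fold change of 0.15, with an interval from -0.35 to 0.66. For MYBL2, the gene of B-MYB, normalized CPM were 138, 96.1 and 159 CPM in controls 1 to 3 and 183, 164 and 111 CPM in sedanolide 1 to 3. The order of the libraries was close to that of FOXM1, with control 2 and sedanolide 3 lowest and sedanolide 1 highest, and the log2 fold change was 0.22 (interval from -0.36 to 0.81).

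Among the mitotic kinases and the chromosomal passenger complex, 5 of 7 genes had positive values. AURKA, the kinase of the centrosome and spindle poles (chromosome 20 of GRCh38 from 56369389 to 56392337), had the largest fitted change of all members. Its level was 111, 84.1 and 135 CPM in controls 1 to 3 and 169.9, 147 and 111 CPM in sedanolide 1 to 3. In both groups the lowest library was on side A. The means were 110.2 ± 25.6 and 143 ± 29.6 CPM (SD, n = 3), and the log2 fold change of 0.37 (standard error 0.223) came with an adjusted p of 0.565 (edgeR's quasi-likelihood test, Benjamini-Hochberg). TPX2, which brings Aurora A to the spindle, was at 0.11 on the log2 scale. PLK1, the Polo-like kinase needed from mitotic entry to cytokinesis, was measured at 167, 130.5 and 195 CPM in controls 1 to 3 and 221, 197 and 151 CPM in sedanolide 1 to 3. Its log2 fold change was 0.20, with an interval from -0.27 to 0.68.

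The chromosomal passenger complex joins Aurora B (AURKB) with INCENP, survivin (BIRC5) and borealin (CDCA8) at centromeres. BIRC5 (chromosome 17 of GRCh38 from 78214186 to 78225636) was the member with the sedanolide libraries all below the controls in CPM. Its normalized level was 144, 137 and 137 CPM in controls 1 to 3 and 125, 135 and 119 CPM in sedanolide 1 to 3. The gap between the groups was narrow, since sedanolide 2 lay close to control 2. Its means of 139 ± 4.37 and 126 ± 8.08 CPM (SD, n = 3) gave a log2 fold change of -0.14, which edgeR's quasi-likelihood test put at an adjusted p of 0.657 (Benjamini-Hochberg). CDCA8 was at 40.3, 39 and 46.6 CPM in controls 1 to 3 and 51.3, 47.1 and 40.4 CPM in sedanolide 1 to 3, a log2 fold change of 0.14. Values for AURKB and INCENP were 0.082 and -0.15, so the subunits of the complex did not share a sign.

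The spindle assembly checkpoint, which keeps the anaphase-promoting complex inactive until kinetochores are attached, held the member with the smallest p-value. MAD2L1, the gene of MAD2, which binds CDC20, lies on chromosome 4 of GRCh38 from 120055623 to 120066858. The libraries gave 33.1, 42.4 and 41.9 CPM in controls 1 to 3 and 50.1, 49.2 and 45.4 CPM in sedanolide 1 to 3. In CPM, all sedanolide libraries lay above all controls, and control 1 was well below the other controls. The means of 39.1 ± 5.19 and 48.2 ± 2.5 CPM (SD, n = 3) differed by a log2 fold change of 0.30 (standard error 0.134, 95% interval from -0.014 to 0.61), and by 0.18 without control 1. The unadjusted p was 0.0583 and the adjusted p 0.436 (edgeR's quasi-likelihood test, Benjamini-Hochberg). Within side A its log2 difference was 0.28 and within side B 0.24. Fitted with the side, it was 0.25 (adjusted p = 0.257 from the same test). BUB1, the kinase that recruits checkpoint proteins to kinetochores, had 75.7, 79.9 and 102 CPM in controls 1 to 3 and 104, 98.9 and 86.8 CPM in sedanolide 1 to 3. BUB3, its partner, had 112, 137 and 113 CPM in controls 1 to 3 and 116, 114 and 137 CPM in sedanolide 1 to 3. BUB1 was highest on side B and BUB3 in control 2 and sedanolide 3, and their log2 fold changes were 0.17 and 0.018. Those of BUB1B (BUBR1) and TTK, the MPS1 kinase, were -0.034 and 0.23.

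The centromere and kinetochore genes were evenly divided, 3 positive and 3 negative, with a median log2 fold change of 0.014. NDC80, which with NUF2 and SPC25 belongs to the complex that grips microtubules, was measured at 15.4, 17.9 and 24.8 CPM in controls 1 to 3 and 28.1, 26.2 and 17.6 CPM in sedanolide 1 to 3. Side A and side B did not overlap, whereas the treatment groups did, and the log2 fold change was 0.30 (interval from -0.26 to 0.87). SPC25 was at 0.25 and NUF2 at -0.051. CENPA, the histone variant that marks centromeres, was at 17.8, 19.7 and 18 CPM in controls 1 to 3 and 19.1, 16.5 and 16.9 CPM in sedanolide 1 to 3, all close together, with a log2 fold change of -0.08. It shares 138 exon bases on the same strand with SLC35F6, which had 286% of its counts. CENPE, a kinetochore kinesin, was at 0.066, and CENPF, a kinetochore protein of late G2, at -0.039.

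Of the genes that protect cohesion and end mitosis, 4 of 5 had positive values. CDC20, which activates the anaphase-promoting complex, was at 77.1, 55.7 and 83.8 CPM in controls 1 to 3 and 102, 89.4 and 68.4 CPM in sedanolide 1 to 3. The spread within each group exceeded the difference between them, with means of 72.2 ± 14.7 and 86.5 ± 16.9 CPM (SD, n = 3) and a log2 fold change of 0.26. SGO1, the shugoshin that guards centromeric cohesion, had 10.2, 12.3 and 13.5 CPM in controls 1 to 3 and 17.8, 13.2 and 12.5 CPM in sedanolide 1 to 3. Sedanolide 1 stood above the other libraries, and the log2 fold change of 0.27 had an interval from -0.16 to 0.71. PTTG1 encodes securin, the inhibitor of separase, and had 57.7, 56.2 and 75.2 CPM in controls 1 to 3 and 80.8, 70 and 51.4 CPM in sedanolide 1 to 3. Its log2 fold change was 0.097. ESPL1, separase itself, was at -0.011, and UBE2C, the ubiquitin-conjugating enzyme of the anaphase-promoting complex and the member with fewest counts, at 0.14.

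Chromosome structure included condensin, topoisomerase and Ki-67. MKI67, the proliferation marker on chromosome 10 of GRCh38 from 128096659 to 128126423, was at 229, 175 and 218 CPM in controls 1 to 3 and 208, 224 and 208 CPM in sedanolide 1 to 3. Control 1 was the highest library and control 2 the lowest, so controls enclosed all sedanolide libraries. The means of 207 ± 28.1 and 214 ± 9.12 CPM (SD, n = 3) gave a log2 fold change of 0.044 (interval from -0.27 to 0.36). TOP2A, the topoisomerase that untangles sister chromatids and the most counted member, was at 297, 314 and 356 CPM in controls 1 to 3 and 337, 324 and 267 CPM in sedanolide 1 to 3, a log2 fold change of -0.061. The condensin genes had positive values in 4 of 4 cases. NCAPG (chromosome 4 of GRCh38 from 17810979 to 17844865) was at 50.6, 47.5 and 69 CPM in controls 1 to 3 and 83.5, 75.2 and 55.1 CPM in sedanolide 1 to 3, with sedanolide 1 and 2 highest. At 0.36 on the log2 scale (standard error 0.208), it had an adjusted p of 0.556 (edgeR's quasi-likelihood test, Benjamini-Hochberg). NCAPG shares 1634 exon bases with LCORL on the opposite strand, which had 31.6% of its counts. SMC2, one of the ATPases of condensin, was at 52.5, 49.6 and 74.4 CPM in controls 1 to 3 and 82.3, 74.7 and 58 CPM in sedanolide 1 to 3, again highest on side B, with a log2 fold change of 0.28. NCAPH, the subunit that closes the ring, was at 39.5, 41.6 and 51 CPM in controls 1 to 3 and 56.3, 46.5 and 45.1 CPM in sedanolide 1 to 3 (0.16 on the log2 scale), and SMC4 had a log2 fold change of 0.094.

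Genes of the spindle, the midzone and cytokinesis numbered 8, with 4 positive and 4 negative values and a median log2 fold change of 0.023. ASPM, a spindle pole protein, had the smallest p-value of this group. Normalized levels were 55.4, 66.7 and 66.1 CPM in controls 1 to 3 and 50.4, 60.4 and 62 CPM in sedanolide 1 to 3. The groups overlapped and the log2 fold change was -0.12 (interval from -0.44 to 0.20). NUSAP1, which bundles spindle microtubules, was at 50.8, 46 and 59.7 CPM in controls 1 to 3 and 53.1, 51.2 and 48.2 CPM in sedanolide 1 to 3, a log2 fold change of -0.038. It shares 195 exon bases on the same strand with OIP5-AS1, a noncoding RNA with 256% of its counts. The log2 fold changes of HMMR and DLGAP5, both spindle assembly factors, were 0.078 and 0.072. PRC1, which cross-links midzone microtubules, was at -0.0014, and an annotated gene on the same strand that shares 3181 of its exon bases had 6.91% of its counts. ANLN, ECT2 and RACGAP1, which place the contractile ring, were at 0.048, -0.05 and 0.11.

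In most of these genes, as in most features, the sides of component 1 differed more than the treatment groups did. The values in this and the next paragraph are descriptions without a test, and HMMR, TTK, NDC80, SPC25, CCNB1, WEE1, INCENP and ESPL1 are given because of their values. In 41 of the 46 members, the difference between side B and side A was larger than the fitted difference between sedanolide and control. This was also so in 63.6% of all features. The sides were derived from these counts, in the direction of most variance, so large differences between them were favored in advance. The side difference was averaged within conditions, whereas the fitted treatment difference did not account for the side. The median absolute log2 difference was 0.33 between sides and 0.11 between conditions, against 0.28 and 0.19 over all features. Side B was higher in 38 members and lower in 8, whereas it was lower in 6728 of the 14104 features. In 36 members side B was higher within the controls and also within the sedanolide libraries. In 29 members every library of side B lay above every library of side A, against 23.1% of all features, and in 3 every library lay below, against 21% of all features. Mitochondrial transcripts and hepatocyte markers moved with the same sides, and their part in this difference was not tested.

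HMMR differed most, by 0.74 on the log2 scale (side B minus side A). Its normalized CPM were 54.7, 50.6 and 83.1 CPM in controls 1 to 3 and 81, 73.9 and 44 CPM in sedanolide 1 to 3, so that side B held 73.9 to 83.1 CPM and side A 44 to 54.7 CPM. Next came TTK at 0.64, NDC80 at 0.60, SPC25 at 0.59 and CCNB1 at 0.57. The opposite order was found in WEE1 (-0.64), INCENP (-0.51) and ESPL1 (-0.22). WEE1 was at 20.2, 26.4 and 16.4 CPM in controls 1 to 3 and 14.1, 18.1 and 27.8 CPM in sedanolide 1 to 3, with the highest values in control 2 and sedanolide 3. INCENP was at 39.1, 39.1 and 33 CPM in controls 1 to 3 and 25.8, 28 and 46.1 CPM in sedanolide 1 to 3, with sedanolide 3 highest and sedanolide 1 lowest. These genes encode an inhibitor of CDK1, a scaffold of the passenger complex and separase, so that members of opposite order share complexes or pathways with members higher on side B, such as AURKB (0.39), CDCA8 (0.26) and PTTG1 (0.47). Among the 1035 pairs of members, the median correlation of log2 CPM over the 6 libraries was 0.56, and 542 pairs were above 0.5. The share of such pairs over all features was not computed. These libraries share the direction of component 1, which also runs through all genes. The median absolute correlation with component 1 was 0.88 for the members and 0.75 over all features.

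**Figure D2:**
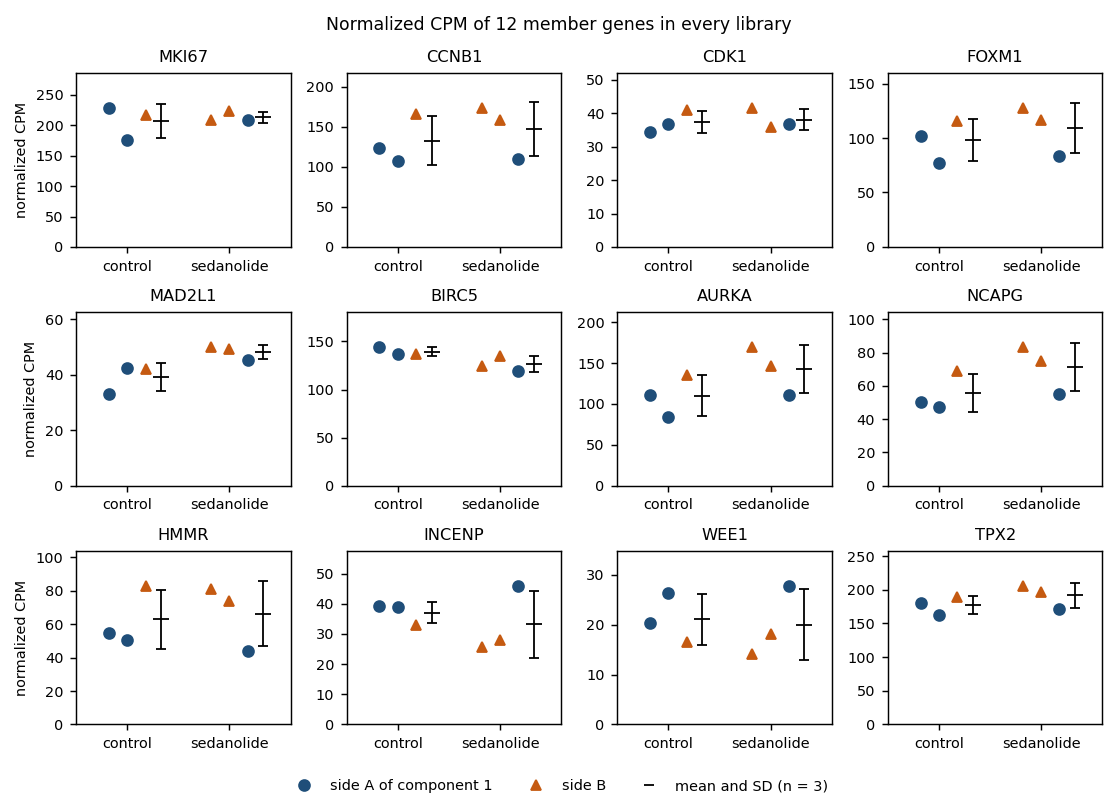
Normalized CPM (y axis, from 0) of 12 members in each control and sedanolide library (x axis), circles for side A and triangles for side B of component 1, with the mean and SD of 3 libraries beside each group. HMMR is higher in the 3 side B libraries and WEE1 and INCENP in the 3 side A libraries, whereas in MAD2L1 the sedanolide libraries lie above the controls.

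Within each side the treatment differences were small and changed sign between sides in 20 of the 46 members. They were positive on both sides in 14 members and negative in 12, against 5162 and 4773 of the 14104 features. On side A (sedanolide 3 against controls 1 and 2) the log2 differences ran from -0.26 to 0.29, and on side B (sedanolide 1 and 2 against control 3) from -0.29 to 0.24. The largest value on side A was that of PKMYT1 (0.29, and 0.19 on side B). AURKA had 0.20 and 0.22, NCAPG 0.17 and 0.20, all positive on both sides. CCNB1, by contrast, had -0.077 and -0.0054, and HMMR -0.26 and -0.10. INCENP changed sign, from 0.24 on side A to -0.29 on side B.

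**Figure D3:**
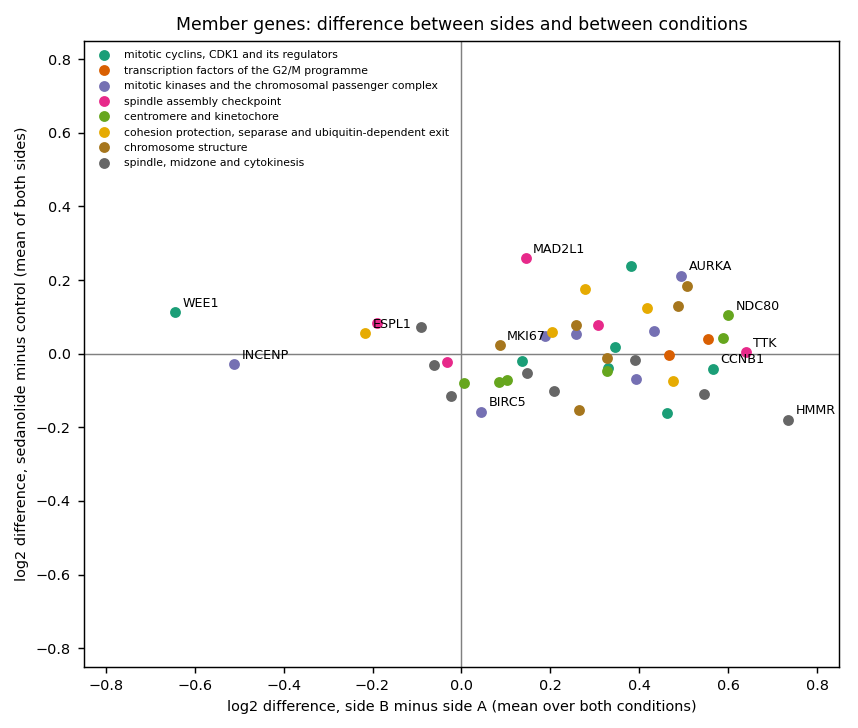
Log2 difference between side B and side A (x axis, mean over both conditions) and between sedanolide and control (y axis, mean of both sides) for each of the 46 members, colored by role, with equal scales. Points spread from -0.64 (WEE1) to 0.74 (HMMR) along the x axis and lie closer to 0 along the y axis.

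The summed normalized level of the 46 members was 3188, 3008 and 3695 CPM in controls 1 to 3 and 3812, 3624 and 3079 CPM in sedanolide 1 to 3. The ratio of the group means, sedanolide over control, was 1.06, and the highest and lowest sums were on side B and side A. Sedanolide 1 was the highest library for 27 members, and control 2 the lowest for 17. These libraries were also the ends of component 1, and the matching shares over all features were not computed. By promoter element, the 26 members with TTTGAA had a median log2 fold change of 0.034 and the 10 without it 0.14, and their median differences between sides were 0.18 and 0.34. For CCAAT, the 26 members with it and the 10 without it had medians of 0.075 and 0.085.

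Levels were compared between genes per length, in TPM (transcript abundance scaled to length and depth) recovered from the deposited log2 values, as means of 6 libraries. PTTG1 (securin) was the most abundant at 175 TPM, from 147 to 198 TPM over the libraries. It was followed by CCNB1 at 142 TPM, BUB3 at 135 TPM and PLK1 at 132 TPM, whose ranges overlapped, and AURKA at 102 TPM. At the low end were UBE2C at 8.27 TPM, ESPL1 (separase) at 6.23 TPM and CENPE at 5.79 TPM. Securin transcripts exceeded those of separase 20.8-fold to 41.6-fold in every library. Transcripts of CCNB1 were 3.56 to 5.55 times those of CDK1, a ratio of 4.43 ± 0.783 in control and 4.85 ± 0.944 in sedanolide-treated cells (SD, n = 3). The member subunits of the NDC80 complex had similar mean levels, with NDC80 at 15.4 TPM, NUF2 at 17.7 TPM and SPC25 at 17.3 TPM. Over the libraries, NUF2 was 0.85 to 1.52 times NDC80. SPC24, a subunit that is not a member, was lower, at 0.354 to 0.934 times NDC80. BIRC5 transcripts were 1.81 to 2.99 times those of AURKB.

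**Figure D4:**
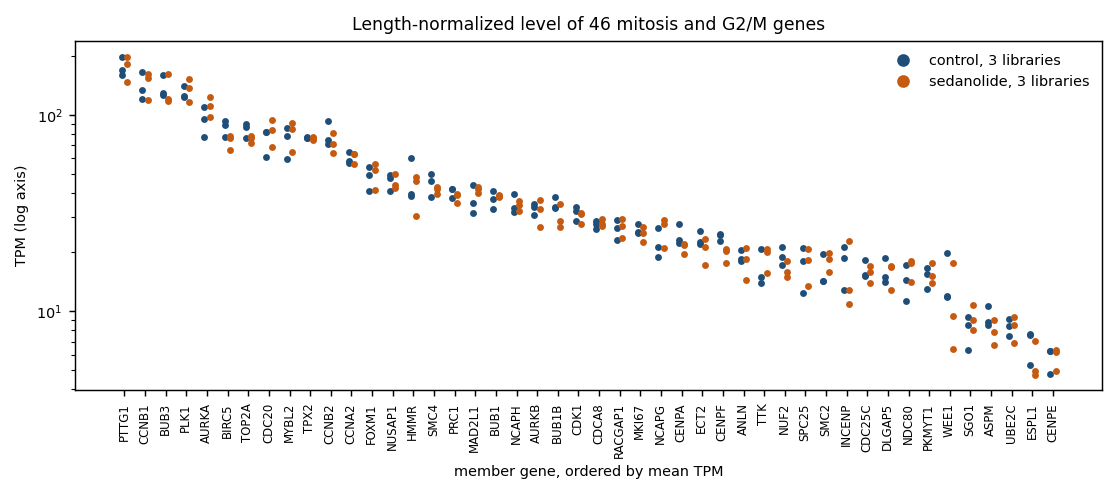
TPM (y axis, log scale) of the 46 members in the 3 control and 3 sedanolide libraries, ordered by mean TPM along the x axis. Levels run from PTTG1, at a mean of 175 TPM, to CENPE, at 5.79 TPM, and the points of the groups overlap in most genes.

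The deposited log2(TPM + 1) table, tested with limma, gave the same count of 0 members past an FDR of 0.05, against 0.554% of its 11006 genes. In this table the median of all genes was shifted, at -0.074, and that of the members was -0.021, which is 0.053 above it. CENPF was the only member with an unadjusted p-value under 0.05, against 11.5% of all genes in the table, at -0.28 on the log2 scale (adjusted p = 0.425 from limma). In the counts its log2 fold change was -0.039. The separations of MAD2L1 and BIRC5 in CPM were not found in TPM. MAD2L1 was at 31.6, 43.7 and 35.6 TPM in controls 1 to 3 and 42.9, 42.1 and 39.8 TPM in sedanolide 1 to 3. BIRC5 was at 88.8, 92.6 and 77.4 TPM in controls 1 to 3 and 66.5, 76.1 and 77.7 TPM in sedanolide 1 to 3. TPX2 varied less over the 6 libraries than any other gene of this table, with an SD of 0.015 on the log2 scale, and was at 76.7, 75.9 and 76.3 TPM in controls and 76.9, 76 and 74.7 TPM in sedanolide libraries. In CPM, however, TPX2 was at 180.3, 163 and 189 CPM in controls 1 to 3 and 206, 197 and 172 CPM in sedanolide 1 to 3, higher on side B.

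Other genes of mitosis, 117 in 8 lists, were examined beside the members, and 116 had enough counts. None was past both thresholds in edgeR, and 1 was called by DESeq2, against 2.33% of all features. In edgeR, 10 had an unadjusted p-value under 0.05 (8 higher and 2 lower, where 5.35% and 6.57% of all features were). Their median log2 fold change was 0.12. Most of the 10, namely 7, were kinetochore and checkpoint genes (5 higher and 2 lower of 32). The smallest p-value belonged to HJURP, the chaperone that loads CENPA onto centromeres. It was measured at 25.3, 21.4 and 23.3 CPM in controls 1 to 3 and 38.8, 34.9 and 32.2 CPM in sedanolide 1 to 3. The groups did not overlap, and HJURP was higher by 0.60 on the log2 scale (standard error 0.127), with an adjusted p of 0.126 (edgeR's quasi-likelihood test, Benjamini-Hochberg). HJURP was past both thresholds in DESeq2 (adjusted p = 0.00244) and, in edgeR, past the FDR but short of 1.5-fold when the side was fitted, at 0.56 on the log2 scale. SPC24, which binds SPC25 in the NDC80 complex, had 9.39, 8.6 and 9.55 CPM in controls 1 to 3 and 6.94, 6.87 and 6.86 CPM in sedanolide 1 to 3, the sedanolide libraries all below the controls, and differed by -0.41 on the log2 scale, with an adjusted p of 0.259 (edgeR's quasi-likelihood test, Benjamini-Hochberg). Its TPM were 0.647 to 0.934 times those of NDC80 in controls and 0.354 to 0.461 times in sedanolide libraries. NDC80 was itself at 11.3, 14.4 and 17.2 TPM in controls 1 to 3 and 18, 17.6 and 14 TPM in sedanolide 1 to 3. The ratio therefore also carries the variation of NDC80, and it was not tested.

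In the list of mitotic entry kinases and phosphatases, 2 of 11 genes had an unadjusted p-value under 0.05, both higher. CDC25A, a phosphatase that activates CDK2 and CDK1, was at 25.7, 28.6 and 23.5 CPM in controls 1 to 3 and 31.8, 32.2 and 36.3 CPM in sedanolide 1 to 3 (log2 fold change 0.37). When the side was fitted, CDC25A was past the FDR in edgeR at 0.43 on the log2 scale (adjusted p = 0.0446) and short of 1.5-fold. CKS1B, a small subunit of CDK complexes, was at 46.1 ± 2.7 and 55.9 ± 1.91 CPM (0.28). Of 10 partners of MuvB and B-MYB, 1 had such a p-value, E2F4, a factor of the DREAM complex, with 94 ± 6.95 and 115 ± 10.6 CPM (log2 fold change 0.29), followed by E2F5 (0.36). The other 5 lists had 0 such genes. Their smallest p-values belonged to ANAPC10 (0.32) and ANAPC13 (0.28) among 17 genes of the anaphase-promoting complex, and to RAD21 (-0.28), a ring subunit, and SGO2 (0.23) among 11 of cohesin. They belonged to NCAPG2 (0.12) and NCAPD3 (0.14) among 4 other condensin subunits, to KIF20A (-0.13) and KIF18A (0.19) among 12 kinesins, and to CKAP2L (-0.24) and ARHGAP11A (0.22) among 19 spindle and cytokinesis genes, all as log2 fold changes.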

How the data were processed

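mRNA was made into directional libraries and sequenced as paired-end reads. The authors used Trimmomatic for trimming, STAR for alignment to GRCh38 and RSEM for quantification. Versions, annotation release and strand setting are not given in the sources used here. The authors deposited unnormalized expected counts from RSEM for 61541 Ensembl genes and 2 reporters, and, for 11006 genes, log2(TPM + 1) values. The members, the gene lists and the tests were chosen with earlier results of these data known.

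Counts were rounded, filtered with filterByExpr, normalized by TMM and tested with the robust quasi-likelihood method of edgeR 4.0.16 (R 4.3.3), with the condition as the only term, at an FDR of 0.05 (Benjamini-Hochberg) and at least 1.5-fold. This left 14102 genes and both reporters. DESeq2 1.42.0 was an alternative, and limma 3.58.1 was used on the log2 values. The study also used DESeq2, through the web application iDEP. At the same thresholds it reported fewer genes in each direction than DESeq2 called here, and the reason was not tested. On simulated data with 13870 genes tested, the test called 41 of 98 genes with a simulated 2-fold change and 87 of 93 with a 4-fold change, and made 7 false calls. Positions came from GENCODE 44, and no libraries agreed within sampling noise.

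Values in every library are given for the 12 members with the smallest p-values, for those with the smallest p-value and the highest TPM in each role, and for MKI67, CCNB1, CDK1 and FOXM1. Of each other list, the 2 genes with the smallest p-values are named. Other genes were named after their values were seen. Alternatives were median-of-ratios factors, library size only, other filters, no robust prior and no fold change threshold. Others were the replicate number or the side of component 1 as a term, and each library left out in turn. The side was derived from the same counts that were then tested, so p-values from fits with it can be too small.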

Additional observations from a re-analysis of the deposited data

How the results depend on the processing

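In every count setting tried, 0 members were past both thresholds. At an unadjusted p-value under 0.05, 0 members were found in each setting with all libraries, and 0 to 4 when each library was left out in turn (3 without control 3 and 4 without sedanolide 3, where 13.8% and 23% of all features were). The median log2 fold change of the members was between -0.0011, when the side of component 1 was fitted, and 0.10, with all genes of at least 1 count, and between 0.022 and 0.22 without a library. Signs of the named members held in 363 comparisons with an alternative and not in 21, among them CDK1 (-0.018 with library size only), CCNB1 (-0.042 with the side as a term) and FOXM1 (-0.010 with it). The 363 include the setting without a fold change threshold, which reuses the main fit, so its signs could not change.

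Calls over all features, 51 higher and 44 lower, were 79 and 79 with all genes of at least 1 count, 151 and 230 with the side as a term, 130 and 198 with DESeq2, and 141 and 203 with DESeq2 and the side as a term, a setting chosen after seeing the data. When each library was left out they were between 0 and 66 higher and between 0 and 70 lower, with 0 without control 1 and without sedanolide 2 (1067 and 889 features at an unadjusted p-value under 0.05), 6 and 2 without control 2, 22 and 7 without control 3, 11 and 2 without sedanolide 1, and 66 and 70 without sedanolide 3. Among the other mitosis lists, 16 genes had an unadjusted p-value under 0.05 with the side as a term (19.5% of all features). Without it there were 10 (11.9% of all features). DESeq2 called 1, against 2.33% of all features. In the log2(TPM + 1) table, the 61 genes past the FDR were 0 to 54 without a library, and the 1 member at an unadjusted p-value under 0.05 was 0 to 2.

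The replicate numbers are shared by the groups, but same-numbered libraries did not deviate together from their group means (correlations of -0.13, -0.30 and -0.73), and no library correlated best with its own number. With the replicate number as a block, 0 features were called higher and 0 lower, 772 features had an unadjusted p-value under 0.05, 0 members were called and the median of the members was 0.081. In the log2(TPM + 1) table the block left 1 gene past the FDR and 0 members at an unadjusted p-value under 0.05. The cause of these changes was not tested. UBE2C, with the fewest counts, had an interval from -0.33 to 0.61 on the log2 scale. With 3 libraries per group detection was limited, since the test called 41 of 98 genes with a simulated 2-fold change. The simulated counts did not carry the split of component 1.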

Other observations

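Genes of the phases before mitosis were measured beside the members. In the list of 37 replication and S phase genes, 0 were past both thresholds in edgeR and 0 in DESeq2, whereas 8 in edgeR and 9 in DESeq2 had an unadjusted p-value under 0.05 (11.9% and 12.4% of all features), the 8 all higher. When the side of component 1 was fitted in edgeR, 12 had such a p-value (19.5% of all features), and MCM10 and ORC1 were past the FDR but short of 1.5-fold, at 0.52 and 0.46 on the log2 scale (adjusted p = 0.0461 and 0.0316). UHRF1 was past both thresholds in DESeq2 with the side, at 0.70 (adjusted p = 0.00247), a setting chosen after seeing the data, and not past the FDR in edgeR with the side (adjusted p = 0.0550). The median log2 fold change of this list was 0.27, and 0.17 with the side in the fit. The 3 sedanolide libraries lay above the 3 controls in 11 genes, against 8.69% of all features. FEN1, the flap endonuclease of lagging strand synthesis, was at 39, 43.9 and 48.6 CPM in controls 1 to 3 and 61.3, 62 and 53.5 CPM in sedanolide 1 to 3. Its log2 fold change was 0.43 and its adjusted p 0.259 (edgeR's quasi-likelihood test, Benjamini-Hochberg). ORC1, the large subunit of the origin recognition complex, was at 30.4, 27.8 and 38.1 CPM in controls 1 to 3 and 54.7, 51.9 and 39.1 CPM in sedanolide 1 to 3, a log2 fold change of 0.60 (adjusted p = 0.260 in the same test). Whether these genes differ from those of mitosis was not tested.

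Of 16 G1 cyclins and CDK inhibitors with enough counts, 1 had an unadjusted p-value under 0.05 in edgeR (11.9% of all features). This was CCNE1, the gene of cyclin E1, which drives entry into S phase, at 20.7, 19.8 and 21.4 CPM in controls 1 to 3 and 32.5, 28.5 and 27.7 CPM in sedanolide 1 to 3. All sedanolide libraries lay above all controls, and the means of 20.6 ± 0.796 and 29.5 ± 2.56 CPM (SD, n = 3) differed by 0.52 on the log2 scale (standard error 0.118), with an adjusted p of 0.147 (edgeR's quasi-likelihood test, Benjamini-Hochberg). The adjusted p was 0.00701 in DESeq2 and 0.0388 in edgeR with the side as a term. In these fits CCNE1 was at 0.52 and 0.48 on the log2 scale, short of 1.5-fold. E2F1, the G1 transcription factor, had a log2 fold change of 0.39 with overlapping groups. CDKN1A, the gene of the inhibitor p21, given after its values were seen, was at 61.4 ± 10.7 CPM in control and 52.6 ± 11.4 CPM in sedanolide-treated cells (log2 fold change -0.22).

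Among the marker lists, the smallest p-values belonged to TTR (-0.53) and FGB (-0.45) of the hepatocyte markers, and to PDGFRB (-1.42) and LYZ (-0.85) of the markers of other cell types, as log2 fold changes with 0 past the FDR.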
